A study of Sus scrofa with 12 samples.

Results

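The extracellular matrix of the testis and of the epididymis is cut and remodelled by secreted and membrane-bound metalloproteases, which were followed here with their inhibitors in boars of BMI, the inbred line of the Banna mini-pig, a small Chinese breed. The genes were chosen by name: every row of the count tables called MMP, ADAMTS or ADAMTSL with a number, or TIMP with a digit. This gave 45 of 30640 gene rows, namely 18 matrix metalloproteases (MMP), 19 ADAMTS proteases, 5 ADAMTS-like genes and 3 tissue inhibitors of metalloproteases (TIMP). Each of the 45 had at least 1 read in at least 1 library. Short-read RNA sequencing covered 5 testis and 5 epididymis libraries from untreated adult boars with no engineered genotype named in the labels. Numbers of animals in the file headers recur in both tissues, so each replicate number stands for 1 boar that gave both samples. The labels give an age of 12 months for all, whereas the headers give 12, 12, 11, 17 and 11 months for replicates 1 to 5. Which region of the epididymis was taken is not said, and 2 long-read libraries made from pooled animals were not analysed here.

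MMPs are zinc-dependent enzymes that are made as inactive precursors and cut collagens, laminins and other matrix proteins, as well as growth factors and receptors at the cell surface. ADAMTS enzymes are secreted relatives with thrombospondin repeats that trim proteoglycans, procollagens and microfibril proteins, and ADAMTS-like proteins keep those repeats but have no protease domain. TIMPs bind the active site of these enzymes and block it. In the testis the matrix forms the basement membrane of the seminiferous tubules and the bed of the Leydig cells, and in the epididymis it surrounds a long epithelial duct wrapped in smooth muscle.

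Library totals ran from 18715154 to 30211957 reads in testis and from 17980578 to 21937263 in epididymis. Levels are counts per 1000000 reads of a library (CPM), and 3 reads, the most that a count of 0 allows, equal 0.0993 to 0.167 CPM. The cDNA was amplified by PCR and carried no molecular identifiers, so this limit and the counting intervals cover counting error only. The labelled tissues were checked against marker genes. Leydig cell genes (4 of 6 listed had a row) summed to 12071 to 19252 CPM in testis and 26.3 to 33.6 in epididymis, and genes of the epididymal epithelium (8 of 14 had a row) to 54.9 to 138 against 5637 to 21809 CPM, with CRISP1 at 0 reads in every testis library. Testis replicate 4 held 70.8 CPM of small structural RNAs, as the epididymis libraries did (71.7 to 132), whereas the other 4 testis libraries held 15042.5 to 16184.8 CPM. Epididymis replicate 3 stood apart from its group: RNASE10, a secreted protein of the proximal epididymis, was at 5909 CPM there and at 6.12 to 16.0 in the other 4, and CRISP1 was at 53.2 against 1382 to 2679.5 CPM.

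Some of these genes differed between the tissues, while others did not pass the test. MMP7, TIMP1, ADAMTS16, MMP11, ADAMTS19 and ADAMTS1 were each higher in epididymis by 7.62-fold or more, and MMP19 and ADAMTS20 were higher in testis by 9.97-fold and 5.39-fold. Of the 45 genes, 38 passed the filter on low counts and were tested with edgeR, and 7 did not pass (ADAMTS14, MMP3, MMP8, MMP12, MMP13, MMP20 and MMP27). At an adjusted p of 0.05, 17 of the 38 (44.7%) were higher in epididymis, where the share over all 17225 genes tested was 37.8%. Another 7 (18.4%) were higher in testis, against 36.6% of all genes: ADAMTS12, ADAMTS13, ADAMTS18, ADAMTS20, ADAMTSL4, MMP19 and MMP24. The remaining 14 did not pass the test.

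A test for a difference beyond 2-fold called 15 of the 38 genes in the direction of epididymis (39.5%), against 23.4% of all genes, and 3 in the direction of testis (7.89%), against 27.3% of all genes. The 15 became 8 with DESeq2 and 11 in the fit paired by boar. The share of all genes beyond 2-fold was not computed for these fits, so their counts have no background beside them. All 5 epididymis libraries lay above all 5 testis libraries for 14 genes (36.8%), against 29.3% of all genes, and below them for 4 (10.5%), against 32.1%. Those 4 were ADAMTS20, ADAMTSL4, MMP19 and MMP24. The median log2 fold change, testis over epididymis, was -0.49 over the 38 genes and -0.07 over all genes tested. The list as a whole was not tested. The p-values set the tissue difference against the spread between libraries of the same tissue, with a single estimate per gene shared by both tissues. Apart from the fit paired by boar, the libraries were treated as unpaired. In whole tissue, fewer cells of a type and less RNA per cell cannot be told apart.

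By family, 7 of 12 tested MMPs (58.3%) were higher in epididymis, against 37.8% of all genes, 2 were higher in testis and 3 were not called, with a median log2 fold change of -1.66. The 18 tested ADAMTS genes divided into 8 higher in epididymis (44.4%), 4 higher in testis and 6 not called, with a median of -0.21. Of the 5 ADAMTS-like genes, 1 was called in each direction, and of the 3 TIMPs, 1 was higher in epididymis. Over all genes tested, 37.8% were higher in epididymis and 36.6% in testis. Groups of 5 and 3 genes are too small to be told apart from these shares. With testis replicate 4 left out, 23 of the 24 calls remained, and ADAMTS15 was lost. A fit with that library as the only one of testis takes its spread from the epididymis alone, so its calls are not counted here. Of the genes described in full, ADAMTS2 and ADAMTS4 alone changed direction in that fit (log2 fold changes of -0.12 and -0.09). For 20 of the 24 called genes, testis replicate 4 itself lay beyond all 5 epididymis libraries in the called direction. That library was part of the fit that made these calls, so the count is a description and no separate support for them. The same share over all genes was not computed.

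**Figure D1:**
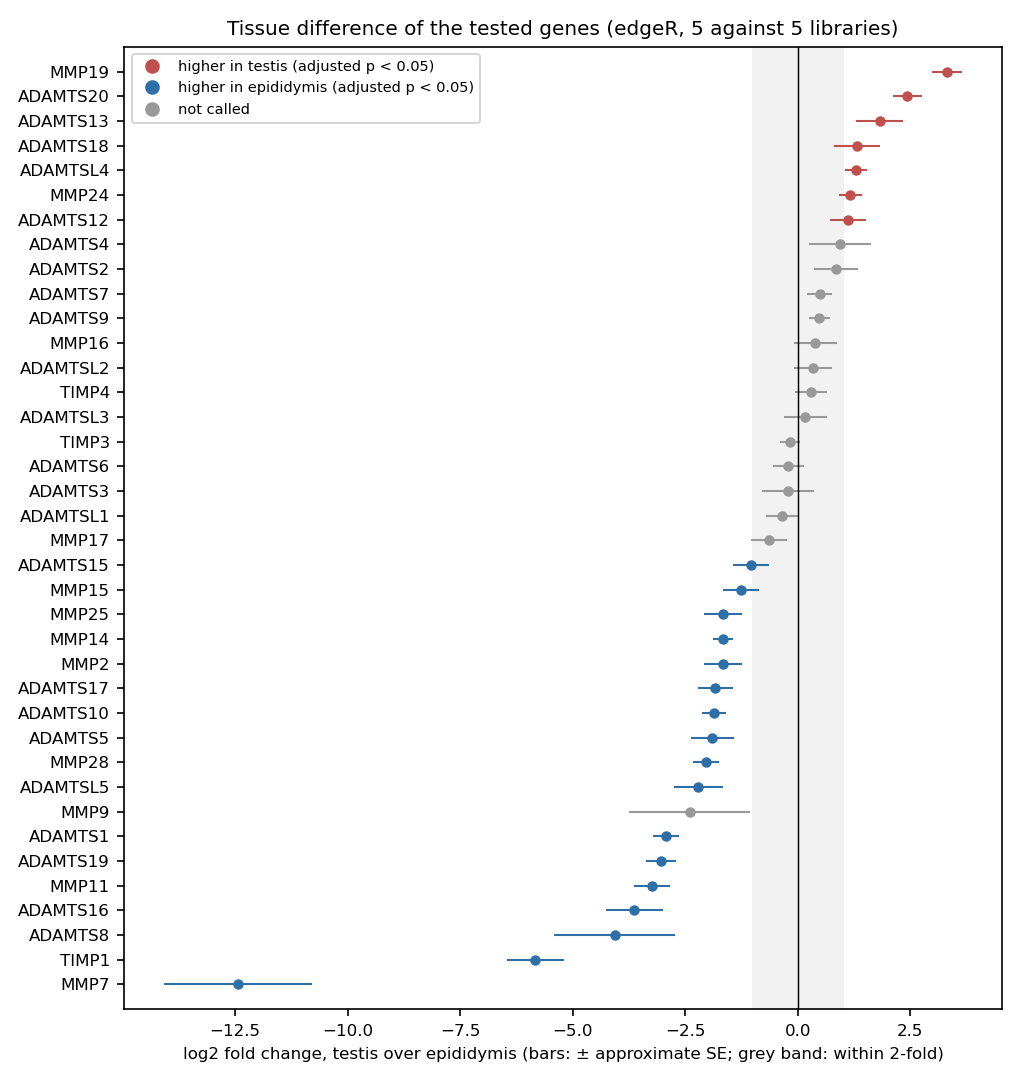
Log2 fold change, testis over epididymis, of the 38 tested genes (x axis), each with its approximate standard error as a bar; colour gives the edgeR call at an adjusted p of 0.05 and the grey band marks differences within 2-fold. MMP7 lies farthest to the left at -12.43 and MMP19 farthest to the right at 3.32, and MMP9 has a wide bar and no call.

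**Figure D2:**
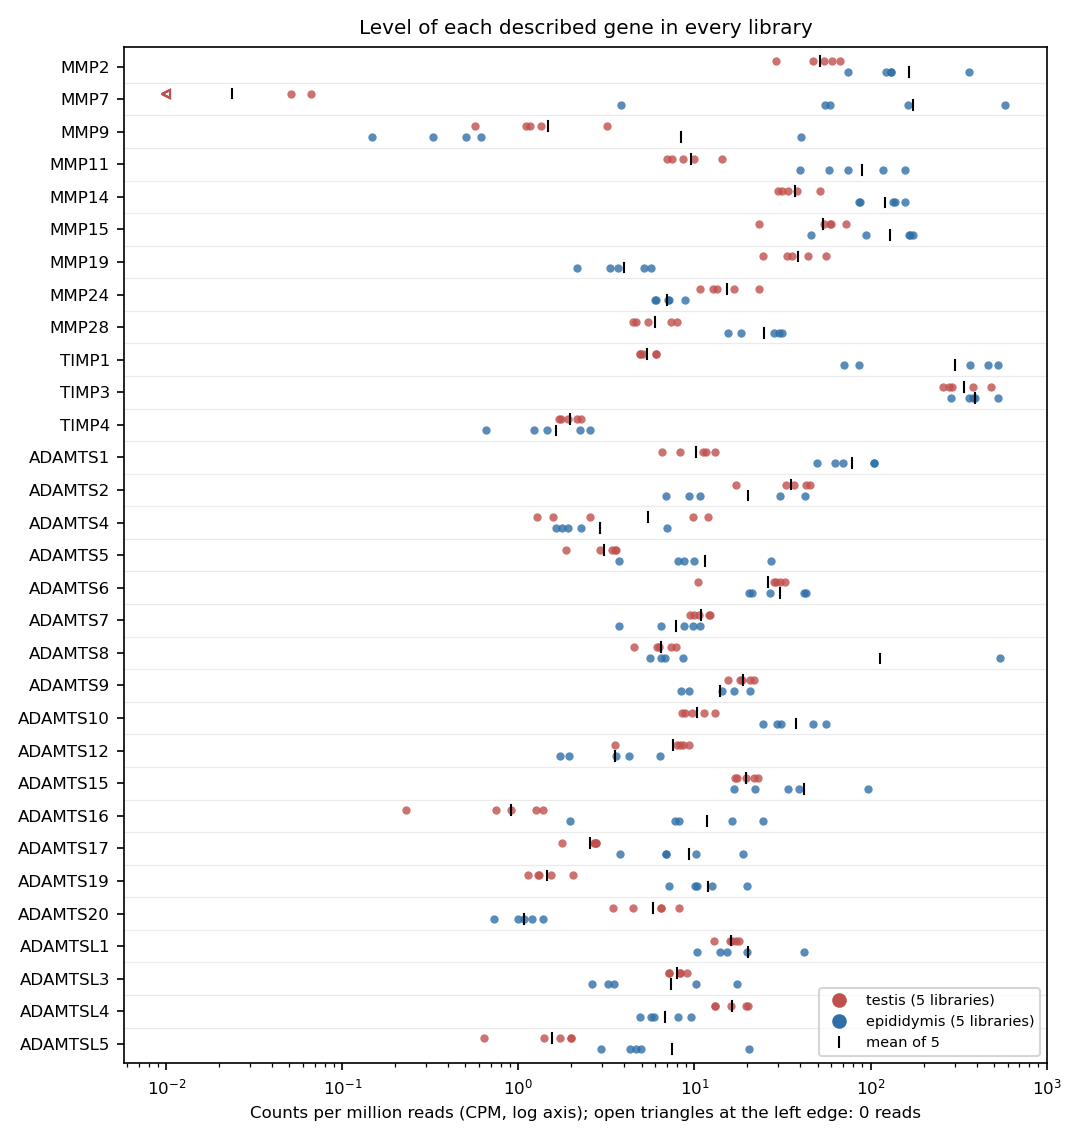
CPM of each gene described in full (log x axis) in the 5 testis libraries (red) and the 5 epididymis libraries (blue), with a black tick at each mean; an open triangle stands for 0 reads. The points of the tissues lie apart for TIMP1, MMP11, MMP14 and MMP19 and overlap for TIMP3, and single epididymis libraries stand far from the rest for ADAMTS8 and MMP9.

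The inhibitors differed in how they were divided between the tissues. TIMP1, a soluble inhibitor of most MMPs (chromosome X, 42103251 to 42106289), had 5.07, 6.02, 6.02, 4.92 and 4.89 CPM in testis replicates 1 to 5 and 366, 527, 71.1, 86.4 and 464 CPM in epididymis replicates 1 to 5. The testis libraries lay close together, while the epididymis libraries fell into 3 high and 2 low ones, the latter still above all of testis. The epididymis mean of 303 ± 213 CPM was 56.7-fold the testis mean of 5.38 ± 0.586 CPM (SD over the 5 libraries of each tissue, as for other means). The log2 fold change was -5.83 ± 0.63 (SE), with an adjusted p of 5.8e-06 in edgeR's quasi-likelihood test.

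TIMP3, the inhibitor that stays bound to the matrix and also blocks ADAMTS proteases (chromosome 5, 12185816 to 12242599), had 279.8, 486, 258, 291 and 382 CPM in testis. In epididymis it stood at 288, 381, 527, 393 and 362 CPM. The ranges overlapped almost wholly, and the log2 fold change of -0.17 ± 0.23 was within the spread between libraries (adjusted p = 0.509). TIMP4 (chromosome 13, 68179803 to 68191199) was low in both tissues, at 1.95 ± 0.250 CPM in testis and at 1.22, 0.657, 2.55, 1.45 and 2.25 CPM in epididymis, without a call (log2 fold change 0.29 ± 0.36, adjusted p = 0.47). Each of these TIMP genes lies inside a synapsin gene: TIMP1 within SYN1, TIMP3 within SYN3 and TIMP4 within SYN2. Whether reads were counted by strand is not given in the sources used here, so reads of host and nested gene cannot be told apart with certainty. SYN1 had means of 1.45 CPM in testis and 3.99 in epididymis, SYN3 of 11.3 and 1.15, and SYN2 of 10.2 and 0.364. SYN2 thus stood above TIMP4 in testis, whereas the SYN1 and SYN3 rows stayed below their TIMP genes in both tissues. TIMP2 is not analysed here.

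MMP7, or matrilysin, is a small secreted protease of glandular epithelia that lacks the hemopexin domain of most MMPs. The gene (chromosome 9, 33214590 to 33225080) had 0.0512, 0.0662, 0, 0 and 0 CPM in testis, 3 reads in all, so every testis library lay under the limit that a count of 0 allows. In epididymis it stood at 164, 584, 3.83, 55.3 and 58.8 CPM, or 16166 reads in all. Even the lowest epididymis library was far above testis, but the highest stood 3.56-fold above the next and the lowest 14.4-fold below the next. The ratio of pooled CPM, epididymis over testis, was 6275, with a 95% counting interval of 2147 to 30431. The fitted log2 fold change was -12.43 ± 1.64 (adjusted p = 2.4e-05) and is set largely by the few testis reads. It was -11.11 without epididymis replicate 2 and -13.24 without testis replicate 2. When testis was represented by replicate 4 alone, which had 0 reads of MMP7, the fitted log2 fold change was -14.72.

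Epididymis replicate 3, the library lowest in MMP7, was also lowest in TIMP1 (71.1 CPM), MMP11 (40.0 CPM) and MMP15 (46.0 CPM). Beside these values, genes of the epididymal epithelium summed to 21236 CPM in this library, against 9808, 6900.0, 21809 and 5637 CPM in replicates 1, 2, 4 and 5. NPC2 (12499 CPM) and RNASE10 (5909 CPM) made up most of it. RNASE10, LCN9, ADAM7, ADAM28 and WFDC2 were highest there, NPC2 and LCN8 were not, and CRISP1 was lowest. Genes of epithelium in general (5 of 6 listed had a row) had their lowest sum there, 1448 CPM against 1511 to 2220.0, although CLDN4 alone of them was lowest. Basal cell genes (4 of 4 listed had a row) summed to 341 CPM in replicate 3, against 955, 821, 1128 and 664 in the others. Of the basal genes, KRT14 was low in replicate 3 (126 CPM against 600.4 to 864), whereas TP63 was highest there (96.3 against 12.9 to 84.6 CPM) and KRT5 and ITGA6 were second highest. Smooth muscle genes summed to 6932 CPM there and to 12349, 16556, 5751 and 11906 CPM in the others. The part of these cell types in the level of MMP7 was not tested.

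MMP7 sits at one end of a cluster of MMP genes on chromosome 9 that spans 402 kb, from 33214590 to 33616700. The files hold 7 genes of it, in the order MMP7, MMP20, MMP27, MMP8, MMP3, MMP12 and MMP13, and MMP7 alone passed the filter on low counts. MMP13, a collagenase, had 5, 11, 20, 16 and 19 reads in testis and 4, 2, 0, 1 and 0 in epididymis. Its testis libraries thus all lay above its epididymis libraries, at 0.636 ± 0.304 against 0.0737 ± 0.0857 CPM, without a test. MMP12, the elastase of macrophages, had 64 of its 68 epididymis reads in replicate 4 (3.56 CPM), and 2 reads in testis. MMP3, or stromelysin-1, had 12 of 17 epididymis reads in that same library, against 2 reads in testis. All 5 reads of MMP27 fell there too. MMP8, the collagenase of neutrophils, had 5 reads in testis and 3 in epididymis, and MMP20, known for its role in tooth enamel, 1 and 10. Counts this low do not allow levels to be compared further. Most of the few epididymis reads of MMP3, MMP12 and MMP27 thus lay in replicate 4, whereas MMP7 was highest in epididymis replicate 2.

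**Figure D3:**
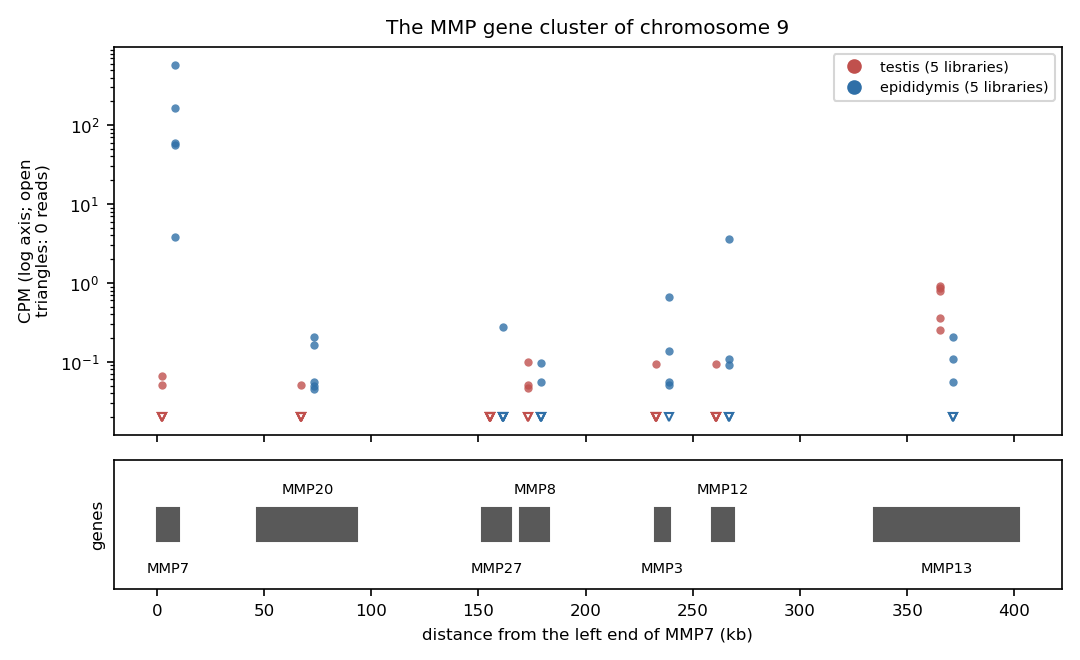
CPM in each library (upper panel, log y axis, open triangles for 0 reads) of the 7 MMP genes of chromosome 9, placed by distance from the left end of MMP7 in kb (x axis), with the gene bodies drawn to scale below. MMP7 reached 584 CPM in epididymis, MMP12 reached 3.56 CPM in 1 epididymis library, and the other genes stayed under 1 CPM in every library.

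The gelatinases, which cut denatured collagen and basement membrane, behaved unlike each other. MMP2 (chromosome 6, 30059247 to 30087031) had 47.0, 60.4, 67.2, 29.2 and 54.3 CPM in testis and 130.4, 131, 123, 74.3 and 364 CPM in epididymis. Every epididymis library was above every testis library, and replicate 5 stood 2.78-fold above the next. The difference was 3.18-fold (log2 fold change -1.67 ± 0.42, adjusted p = 0.00327). MMP9 (chromosome 17, 48179690 to 48186782) had 0.564, 1.16, 1.11, 1.34 and 3.20 CPM in testis and 0.611, 0.329, 0.501, 40.5 and 0.147 CPM in epididymis. A single library, epididymis replicate 4, stood 66.4-fold above the next, and the other 4 lay below all testis libraries except replicate 1. No call was made over all libraries (log2 fold change -2.40 ± 1.34, adjusted p = 0.122). Without epididymis replicate 4 the direction turned: MMP9 was then higher in testis, with a log2 fold change of 1.85 and an adjusted p of 0.0123, and the fit paired by boar gave 0.65 (adjusted p = 0.644).

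Epididymis replicate 4 was the library highest in MMP9 and held most of the few epididymis reads of MMP12, MMP3 and MMP27. That library comes from the boar whose header age is 17 months. Its macrophage genes (6 of 6 listed had a row) summed to 191 CPM, against 84.4 to 164 in the other epididymis libraries and 79.8 to 98.2 in testis. Of these genes, CD14 (12.2 CPM) and AIF1 (8.29 CPM) were highest in this library among those of epididymis, and CD68, CD163, CSF1R and MRC1 were not. Neutrophil genes (4 of 6 had a row) summed to 4.67 CPM there, against 0.767 to 3.60 in the other epididymis libraries and 2.46 to 7.54 in testis. CSF3R alone gave 4.56 CPM of that sum, and S100A8 and MPO had no reads there. Of the 4 basal cell genes, which summed to 1128 CPM there against 341 to 955, KRT5 (292 CPM) and ITGA6 (44.8 CPM) were highest in this library, and KRT14 (706 CPM) and TP63 (84.6 CPM) were not. The part of these cell types in the level of MMP9 was not tested.

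MMP11, or stromelysin-3, is activated inside the cell by furin and is known from stromal cells next to epithelia. The gene (chromosome 14, 49907684 to 49917494) had 7.48, 6.98, 10, 14.4 and 8.62 CPM in testis and 117, 158, 40.0, 74.5 and 58.3 CPM in epididymis. The tissues did not overlap, and the 9.45-fold difference passed the test beyond 2-fold (log2 fold change -3.24 ± 0.40, adjusted p = 1.5e-05). Replicates 1 and 2 were the highest of the epididymis, as they were for MMP7.

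Of the 6 membrane-type MMPs, which are anchored at the cell surface, 3 were higher in epididymis, 1 was higher in testis and 2 were not called. Over all genes tested, 37.8% were higher in epididymis and 36.6% in testis. A group of 6 is too small to be told apart from these shares. MMP14, the main cell-surface collagenase and the activator of MMP2 (chromosome 7, 76174502 to 76185931), had 29.8, 51.8, 38.1, 31.4 and 34.1 CPM in testis and 87.0, 137, 134, 158 and 86.0 CPM in epididymis. All epididymis libraries were higher, by 3.16-fold on average (log2 fold change -1.66 ± 0.23, adjusted p = 4.3e-05). MMP15, a close relative (chromosome 6, 19890867 to 19912941), had 54.7, 72.7, 60.0, 23.3 and 58.6 CPM in testis and 167, 166, 46.0, 93.8 and 174 CPM in epididymis. Here epididymis replicate 3 fell among the testis libraries, and the 2.39-fold difference was called (adjusted p = 0.0138) but did not pass the test beyond 2-fold (adjusted p = 0.186).

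MMP24, a membrane-type MMP best known from the nervous system (chromosome 17, 38587230 to 38636628), went the other way. It had 13.4, 23.3, 16.7, 10.7 and 12.8 CPM in testis and 7.03, 6.02, 8.80, 7.17 and 5.97 CPM in epididymis, without overlap. The difference was 2.25-fold (log2 fold change 1.17 ± 0.25, adjusted p = 0.00126). The other membrane-type genes were low: MMP25, known from leukocytes, had 0.650 ± 0.305 CPM in testis and 2.07 ± 1.17 in epididymis and was called (adjusted p = 0.00404). MMP16 and MMP17 were not called (adjusted p = 0.468 and 0.155), although MMP17 passed without epididymis replicate 3.

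MMP19 and MMP28 are secreted MMPs outside the classical groups. MMP19, which cuts basement membrane proteins (chromosome 5, 21279514 to 21285943), had 33.6, 55.7, 44.4, 24.6 and 35.7 CPM in testis and 3.31, 5.15, 5.65, 3.67 and 2.15 CPM in epididymis. The lowest testis library was above the highest epididymis library by several-fold, and the 9.97-fold difference had a log2 value of 3.32 ± 0.33 (adjusted p = 2.7e-06). MMP28, or epilysin (chromosome 12, 39739074 to 39766794), had 4.46, 7.98, 7.36, 5.45 and 4.64 CPM in testis and 15.5, 30.4, 31.6, 18.4 and 28.4 CPM in epididymis. Its tissues did not overlap either, with the epididymis 4.09-fold higher (log2 fold change -2.03 ± 0.29, adjusted p = 5.1e-05). Of the 38 tested genes, MMP19 had the largest log2 fold change towards testis.

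The ADAMTS genes that cut proteoglycans such as aggrecan and versican numbered 7. Of these, 4 (57.1%, against 37.8% of all genes) were higher in epididymis, 1 (14.3%, against 36.6%) was higher in testis and 2 were not called. ADAMTS1, an enzyme with a known part in ovulation (chromosome 13, 190277175 to 190285957), had 13.1, 11.7, 6.57, 8.28 and 11.2 CPM in testis and 105, 104, 69.6, 62.6 and 49.9 CPM in epididymis. The groups did not overlap, and the 7.62-fold difference had a log2 value of -2.93 ± 0.29 (adjusted p = 3.1e-06). Its neighbour ADAMTS5, the main aggrecanase of cartilage, begins 67061 bases further on (190353019 to 190413110). It had 2.92, 3.41, 3.56, 1.87 and 3.53 CPM in testis and 9.88, 27.2, 8.07, 8.68 and 3.72 CPM in epididymis. The lowest epididymis library stood barely above the highest of testis. The log2 fold change of -1.90 ± 0.48 (adjusted p = 0.00337) shrank to -1.26 (adjusted p = 0.00432) without epididymis replicate 2. The neighbours were thus higher in the same tissue, while replicate 2 stood 2.75-fold above the next for ADAMTS5 and was level with replicate 1 for ADAMTS1.

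A second pair of neighbours, ADAMTS8 and ADAMTS15, lies on chromosome 9 with 14449 bases between them. ADAMTS8 (57090313 to 57113077) had 7.38, 6.09, 7.87, 4.54 and 6.32 CPM in testis and 8.60, 6.79, 542, 5.56 and 6.46 CPM in epididymis. Epididymis replicate 3 alone was high, 63.0-fold above the next, and the other 4 overlapped testis. The call over all libraries (log2 fold change -4.07 ± 1.34, adjusted p = 0.0159) therefore rests on this library: without it the log2 fold change was -0.10 (adjusted p = 0.728). In the fit paired by boar it was -0.91 (adjusted p = 0.342).

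ADAMTS15 (57127527 to 57152550) had 17.4, 19.5, 21.7, 16.9 and 23.0 CPM in testis and 34.2, 39.1, 16.7, 96.9 and 22.2 CPM in epididymis. Replicate 3, where its neighbour peaked, was the lowest epididymis library for ADAMTS15, and replicate 4 was the highest. The 2.05-fold difference was only just called (log2 fold change -1.04 ± 0.39, adjusted p = 0.0313). It was lost in the fit paired by boar (-0.78, adjusted p = 0.115), without epididymis replicate 4 (-0.55, adjusted p = 0.0913) and without any 1 of the 5 testis libraries.

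ADAMTS20, a large protease best known from pigment cells and palate closure (chromosome 5, 74502098 to 74672703), was the proteoglycan-cleaving gene called higher in testis, although at 0.875 TPM (transcripts scaled by gene length) it was the lowest of the 7 there. It had 6.46, 3.44, 6.48, 8.18 and 4.48 CPM there and 1.37, 1.20, 0.729, 1.00 and 1.08 CPM in epididymis. No library overlapped, and the difference was 5.39-fold (log2 fold change 2.43 ± 0.32, adjusted p = 2.7e-05). Its relative ADAMTS9 had 18.9 ± 2.41 CPM in testis and 13.9 ± 5.09 in epididymis and missed the call (log2 fold change 0.48 ± 0.24, adjusted p = 0.09). The gene was called for testis with DESeq2-type size factors in edgeR (0.61, adjusted p = 0.0341) and with DESeq2 (0.61, adjusted p = 0.0255). It also passed without epididymis replicate 3 (0.64, adjusted p = 0.0242). ADAMTS4, an aggrecanase induced by inflammation, had 1.28, 12.0, 1.57, 2.56 and 9.85 CPM in testis and 6.97, 1.64, 1.91, 2.28 and 1.76 CPM in epididymis. Single libraries of either tissue were high and no call was made (log2 fold change 0.93 ± 0.69, adjusted p = 0.235).

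The procollagen N-proteinases remove the amino-terminal propeptide of fibrillar collagens, and of the 3 genes the 2 tested were not called. ADAMTS2 (chromosome 2, 79182901 to 79406879) had 43.1, 45.6, 33.1, 17.2 and 36.9 CPM in testis and 9.27, 6.90, 42.7, 10.8 and 30.8 CPM in epididymis. In epididymis 2 libraries reached the testis level and 3 stayed below all of testis. The log2 fold change was 0.84 ± 0.49 (adjusted p = 0.139), and 1.27 with a call for testis (adjusted p = 0.0209) without epididymis replicate 3. Fibroblast genes (6 of 6 listed had a row) summed to 1640.1, 2009, 5278, 1506 and 4045 CPM in epididymis, with the same 2 libraries highest, and to 331 to 823 CPM in testis. COL1A1, COL1A2, COL3A1 and DCN were each highest in these 2 libraries, replicates 3 and 5, whereas LUM and PDGFRA were highest in replicates 3 and 4. COL1A1, a chain of its collagen substrate, was at 1004 ± 661 CPM in epididymis and at 191 ± 113 in testis (higher in epididymis, adjusted p = 0.00178). The part of fibroblasts in the spread of ADAMTS2 was not tested. ADAMTS3 was at 3.43 ± 0.514 CPM in testis and, like ADAMTS2, highest in epididymis replicate 3 (12.4 CPM, against 1.02 to 2.68 in the others). ADAMTS14 stayed at 40 reads in epididymis and 44 in testis.

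ADAMTS7 and ADAMTS12 cut cartilage oligomeric matrix protein, COMP. ADAMTS12 (chromosome 16, 19547003 to 19920780) had 7.94, 9.27, 8.24, 3.53 and 8.66 CPM in testis and 1.93, 4.22, 6.34, 1.72 and 3.57 CPM in epididymis. Testis replicate 4 fell within the epididymis range, while the other 4 lay above it. The 2.15-fold difference was called (log2 fold change 1.11 ± 0.40, adjusted p = 0.0257) but was lost without testis replicate 2 (adjusted p = 0.0572), epididymis replicate 1 (0.0502) or epididymis replicate 4 (0.055). ADAMTS7 had 10.9 ± 1.22 CPM in testis and 7.89 ± 2.84 in epididymis, without a call (adjusted p = 0.138). Their substrate gene COMP was at 529 ± 60.5 CPM in testis and 3.54 ± 4.81 in epididymis, a 154-fold difference (adjusted p = 8.2e-06). ADAMTS13, which cuts von Willebrand factor, was low but higher in testis, at 1.66 ± 0.568 against 0.473 ± 0.330 CPM (3.53-fold, adjusted p = 0.00718), while VWF itself was not called (adjusted p = 0.639). ADAMTS13 overlaps CACFD1 and SLC2A6 on chromosome 1, and those rows stood above it in both tissues.

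Among the other ADAMTS genes, 4 of 6 were higher in epididymis (37.8% of all genes), all 4 without overlap of libraries (29.3% of all genes). ADAMTS10, a protease of fibrillin microfibrils (chromosome 2, 70734234 to 70751205), had 9.73, 8.84, 11.3, 13.0 and 8.50 CPM in testis and 31.0, 55.7, 47.2, 29.5 and 24.6 CPM in epididymis. The log2 fold change was -1.86 ± 0.26 (adjusted p = 4.5e-05). ADAMTS17, linked like ADAMTS10 to Weill-Marchesani syndrome of short stature and lens defects (chromosome 1, 138619701 to 139015681), had 2.77, 2.75, 2.73, 1.76 and 2.67 CPM in testis. In epididymis it had 10.2, 6.90, 6.88, 18.9 and 3.77 CPM, 3.55-fold more (adjusted p = 0.000971). FBN1, which encodes the microfibril protein fibrillin-1, was also higher in epididymis, at 132 ± 88.1 CPM against 43.9 ± 10 in testis (adjusted p = 0.00398).

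ADAMTS19 (chromosome 2, 132145266 to 132413116) had 1.13, 1.29, 1.53, 2.03 and 1.31 CPM in testis and 12.6, 19.8, 10.1, 7.17 and 10.3 CPM in epididymis. This was one of the steadier differences, 8.21-fold with a log2 value of -3.04 ± 0.33 (adjusted p = 6.6e-06). ADAMTS16, a gene linked to blood pressure and to testis descent in rodents (chromosome 16, 76326718 to 76491050), had 1.38, 1.26, 0.231, 0.748 and 0.903 CPM in testis and 7.74, 8.21, 24.5, 16.4 and 1.96 CPM in epididymis. The 12.4-fold difference (log2 fold change -3.63 ± 0.64, adjusted p = 0.000263) came with a wide range in epididymis, and the log2 value was -2.75 (adjusted p = 0.000797) without replicates 3 and 4. ADAMTS18 was called for testis at 1.84 ± 0.681 against 0.749 ± 0.688 CPM (adjusted p = 0.0337), a call lost in 7 of the 10 fits that leave out 1 library. ADAMTS6 had 32.7, 29.1, 28.3, 10.5 and 30.5 CPM in testis and 41.9, 43.1, 26.8, 21.3 and 20.3 in epididymis and was not called (adjusted p = 0.59).

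The ADAMTS-like genes, whose products bind microfibrils, showed 1 call in each direction. ADAMTSL4, required for the fibres that hold the lens (chromosome 4, 98577813 to 98589255), had 16.1, 19.5, 13.1, 13.1 and 20.2 CPM in testis and 4.89, 5.69, 8.11, 5.90 and 9.50 CPM in epididymis. All testis libraries were higher, by 2.44-fold (log2 fold change 1.29 ± 0.25, adjusted p = 0.000592). ADAMTSL5 (chromosome 2, 76966155 to 76975555) had 2.0, 1.72, 1.99, 0.641 and 1.40 CPM in testis and 4.68, 2.96, 20.4, 4.28 and 4.95 CPM in epididymis. The libraries did not overlap, but epididymis replicate 3 stood 4.12-fold above the next. The log2 fold change of -2.21 ± 0.55 (adjusted p = 0.00313) shrank to -1.44 (adjusted p = 0.00286) without it. ADAMTSL1, at 16.0 ± 1.88 and 20.3 ± 12.6 CPM, ADAMTSL2, at 3.81 ± 0.707 and 3.03 ± 1.66, and ADAMTSL3, at 7.99 ± 0.821 and 7.38 ± 6.39, were not called. ADAMTSL3 was at 17.4 and 10.2 CPM in epididymis replicates 3 and 4 and at 2.63 to 3.48 in the others. Without those 2 libraries it was called for testis (log2 fold change 1.31, adjusted p = 0.000498).

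Levels were compared between genes after division by gene length, as transcripts per 1000000 transcripts (TPM). In testis TIMP3 led the whole group with 177 ± 51.1 TPM, followed by MMP19 with 61.2, MMP2 with 35.1, MMP15 with 29.9 and MMP14 with 21.4 TPM. From MMP2 to MMP14 the means of neighbours lay within 1 SD of each other, whereas TIMP3 (134 to 255 TPM) stayed above MMP19 (37.5 to 88.4 TPM) in range. In epididymis TIMP1 led with 631 ± 428 TPM, followed by MMP7 with 285 ± 369, TIMP3 with 189 ± 44.0, MMP2 with 104, MMP11 with 78.3 and ADAMTS8 with 67.3 TPM. TIMP1 was above MMP7 in 5 of 5 epididymis libraries and above TIMP3 in 3 of 5, and MMP7 was above TIMP3 in 2 of 5, so the place of TIMP3 differed between libraries. ADAMTS8 was high in replicate 3 alone.

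Summed over a family, the 18 MMPs reached 155, 231, 199, 114 and 172 TPM in testis and 613, 1298, 254, 444 and 578 TPM in epididymis. The families of protease and inhibitor thus both had more transcript in epididymis, by a ratio of means of 3.66 for MMPs and 4.31 for TIMPs, and no library overlapped in either. TIMPs summed to 159, 270.4, 149, 159 and 215 TPM in testis and to 893, 1171, 398, 422 and 1217 TPM in epididymis. MMP19 gave 35.2% of the MMP transcripts in testis (32.9% to 38.3% by library). MMP7 gave 44.7% in epididymis, but by library its share was 45.8%, 70.9%, 2.60%, 24.7% and 18.7%, and it was 26.7% without replicate 2. TIMP3 gave 93.0% of the TIMP transcripts in testis (90.1% to 94.4% by library). TIMP1 gave 76.9% in epididymis, with 84.9% to 85.9% in replicates 1, 2 and 5, while TIMP3 was ahead of it in replicates 3 and 4, where TIMP1 gave 37.3% and 49.2%. TIMP2 is missing from these sums. ADAMTS genes summed to 62.7 ± 11 TPM in testis and to 118, 126, 436, 136 and 80.4 TPM in epididymis, of which ADAMTS8 made up 37.6% through replicate 3. ADAMTS-like genes stood at 16.3 ± 2.25 and 15.1 ± 5.56 TPM. The sums are descriptions, with no test.

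**Figure D4:**
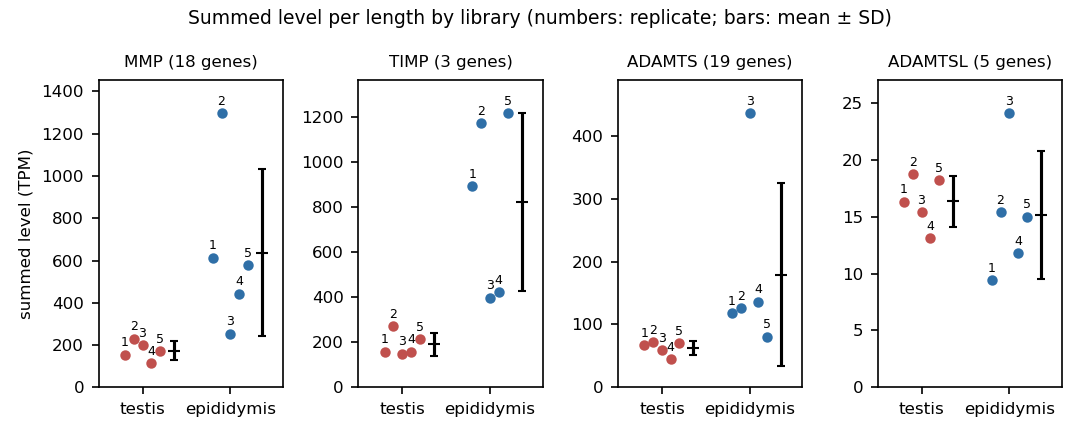
Summed TPM of each family in every library (points with the replicate number) with the mean and SD of 5 (bars), a panel per family with its own y axis from 0. MMPs and TIMPs lie higher in all epididymis libraries than in any testis library, ADAMTS peaks at 436 TPM in epididymis replicate 3, and ADAMTS-like genes overlap.

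These genes varied between the 5 epididymis libraries. The coefficient of variation, the SD as a percentage of the mean, had a median of 54.7% over the 35 family genes at 1 CPM or more in epididymis, against 33.1% over 14741 genes at that level. In testis the medians were 26.2% over 35 family genes and 21.5% over 15723 genes. The widest in epididymis were MMP9 with 213%, ADAMTS8 with 210.1%, MMP7 with 137% and ADAMTS3 with 115%, each above at least 95.2% of genes. These were picked as the widest of the 35. MMP9 reached the minimum of 1 CPM only through its high library, as the other epididymis libraries averaged 0.397 CPM. In testis ADAMTS4 with 93.2% and MMP9 with 68.4% were the widest. MMP9, ADAMTS8 and MMP7 had 1 high library each. Below that library MMP7 still ranged from 3.83 to 164 CPM, whereas MMP9 and ADAMTS8 stayed within 0.147 to 0.611 and 5.56 to 8.60 CPM.

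The high library differed from gene to gene. Epididymis replicate 3 was the highest for 15 of the 35 genes (42.9%, against 29.4% of all genes), among them ADAMTS2, ADAMTS3, ADAMTS8, ADAMTS16, ADAMTSL3 and ADAMTSL5. It was also the lowest for 7, among them MMP7, MMP11, MMP15, TIMP1 and ADAMTS15. Replicate 2 was the highest for 9 (25.7%, against 22.4%), including MMP7, MMP11, TIMP1, ADAMTS5 and ADAMTS10, and replicate 4 for 5 (14.3%, against 22.0%), which were ADAMTS15, ADAMTS17, MMP9, MMP14 and MMP17. Replicates 1 and 5 were the highest for 3 each (8.57%, against 10.8% and 15.3% of all genes), MMP2 with 364 CPM in replicate 5 among them. Replicate 5 was the lowest for 11 genes (31.4%, against 24.2%). Genes of 1 family peaked in different boars, so no single library was high for all of them. How these differences relate to the epididymal region or to the boar was not tested.

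**Figure D5:**
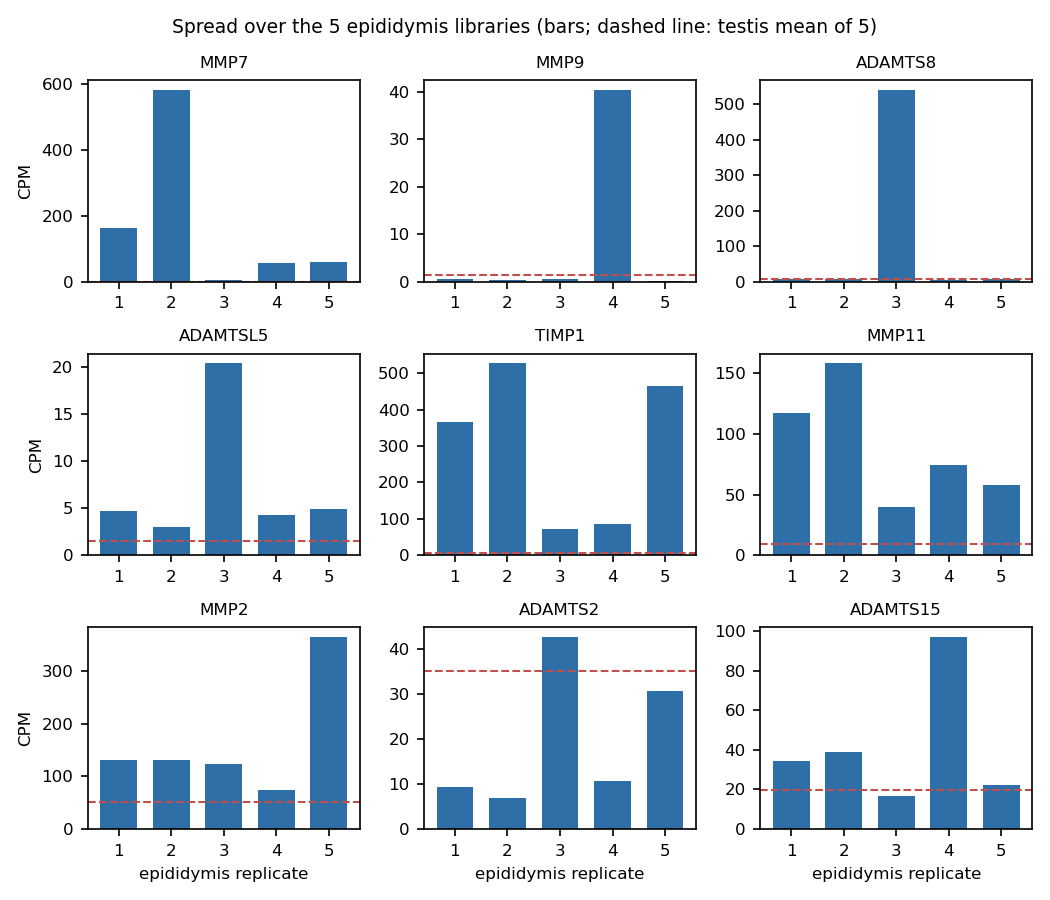
CPM of 9 genes in epididymis replicates 1 to 5 (bars from 0, a panel per gene with its own y axis), with the testis mean of 5 as a dashed line. MMP7, TIMP1 and MMP11 were lowest in replicate 3, ADAMTS8 and ADAMTSL5 stood out in replicate 3, MMP9 and ADAMTS15 in replicate 4, and MMP2 in replicate 5.

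Other genes of the same pathway, those that activate, inhibit or anchor these proteases, were tested in the same fit. Of 28 listed genes 21 were tested, and 13 (61.9%) were higher in epididymis, 2 (9.52%) were higher in testis and 6 were not called, with a median log2 fold change of -1.36. Over all genes tested these shares were 37.8% and 36.6%, and the median was -0.07. FURIN, the convertase that activates MMP11 and the membrane-type MMPs, was at 88.4 ± 19.1 CPM in testis and 308 ± 186 in epididymis (3.34-fold, adjusted p = 0.000958). PLAU, the urokinase that generates plasmin, was at 4.53 ± 1.26 and 50.2 ± 40.5 CPM (11-fold, adjusted p = 7.4e-05). PAPLN, or papilin, a matrix protein related to the ADAMTS family, was at 7.52 ± 0.986 CPM in testis and at 469 ± 237 in epididymis (60.5-fold, adjusted p = 7.3e-08). RECK, a membrane-bound MMP inhibitor, differed by 1.93-fold (adjusted p = 0.00265). TFPI2, a secreted inhibitor of serine proteases, was at 3.92 ± 1.90 and 88.8 ± 20.1 CPM (adjusted p = 2.2e-07).

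The 2 genes higher in testis were A2M and BMP1. A2M, alpha-2-macroglobulin, a trap for proteases of all classes, was at 7305 ± 1493 CPM in testis and 113 ± 49.9 in epididymis (65.8-fold, adjusted p = 8.2e-08). BMP1, the C-proteinase of procollagens, was at 159 ± 33.3 and 19.6 ± 5.78 CPM (8.26-fold, adjusted p = 8.6e-07). Of 19 tested genes of matrix proteins that these enzymes cut, 8 (42.1%) were higher in epididymis, near the 37.8% of all genes, 2 (10.5%) were higher in testis, against 36.6%, and 9 were not called. The 8 were DCN, BGN, FN1, ELN, FBN1, COL1A1, COL1A2 and COL3A1, and the 2 were COMP and the brain proteoglycan NCAN (16.1 ± 2.17 CPM in testis and 3 reads in all of epididymis). The large proteoglycans ACAN and VCAN, classical substrates of ADAMTS1, ADAMTS4 and ADAMTS5, were not called (adjusted p = 0.407 and 0.836).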

How the data were processed

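Poly(A) RNA of 5 testis and 5 epididymis samples was sequenced after TRIzol extraction and SMARTer cDNA synthesis, per the labels' protocols. Cutadapt 3.0, STAR and featureCounts of Subread were used with the build Sscrofa11.1, per the submitters' processing notes. Not given in the sources used here are the annotation release, strand setting and treatment of multiply mapped reads. Each deposited file lists unnormalized counts by gene beside the gene's length, per the file headers. Reads of overlapping or closely similar genes may therefore be split or shared: 17 of the 45 genes overlap another RefSeq gene, 7 of them a protein-coding one. Coordinates are those of a RefSeq table of the same build, which matched all 45 symbols.

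No 2 libraries were identical (lowest chi-square per degree of freedom 10.3 within testis and 78.9 within epididymis), so each counts as 1 replicate. Same-numbered libraries come from the same boar. Their deviations from the tissue means correlated at 0.01 to 0.10 over 16276 genes.

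With R 4.3.3 and edgeR 4.0.16, filterByExpr left 17225 genes, TMM factors scaled the libraries, and the robust quasi-likelihood test with tissue as its only term gave log2 fold changes and p-values with Benjamini-Hochberg adjustment over all genes tested. Differences beyond 2-fold were tested with glmTreat. Standard errors are approximate: the log2 fold change before shrinkage divided by the square root of F. Scripts were tested on simulated data. Alternatives were other scalings, no filter, DESeq2 1.42.0, a block for the boar, and each library left out. Chosen after seeing the data were fits with replicate 4 as the sole testis library and without epididymis replicates 3 and 4.

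Genes at a mean of 5 CPM or more in either tissue, MMP7 and the TIMPs are given in full, the others by range and count. The genes and lists were chosen with earlier results of these data known.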

Additional observations from a re-analysis of the deposited data

Results flagged for a closer look

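Over the 31 genes given in full, in 11 of 62 sets of 5 libraries (1 gene in 1 tissue, 17.7%), the highest or lowest library lay so far from the nearest of the others that the gap exceeded 0.71 of the whole range, Dixon's critical value for 5. Chance gives about 1 in 20 for values of normal spread. Over all genes at the same level the share was 19.0% (26.1% in testis and 12.0% in epididymis). The share of these genes is near that of all genes only when the tissues are pooled. Of the 11, 8 were among the 31 sets of epididymis, above the share of all genes there. The other 3 were among the 31 sets of testis, below the share of all genes there.

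In epididymis, replicate 3 was far above the rest for ADAMTS8, at 542 CPM (the others 5.56 to 8.60), and for ADAMTSL5, at 20.4 CPM (2.96 to 4.95). Replicate 4 was far above for MMP9, at 40.5 CPM (0.147 to 0.611), and for ADAMTS15, at 96.9 CPM (16.7 to 39.1). Replicate 2 stood out for MMP7, at 584 CPM (3.83 to 164), and for ADAMTS5, at 27.2 CPM (3.72 to 9.88). Replicate 5 was far above for MMP2, at 364 CPM (74.3 to 131), and replicate 1 for ADAMTS4, at 6.97 CPM (1.64 to 2.28). MMP9 and ADAMTSL5 reached the mean of 5 CPM for being given in full only through the library flagged here. Their other epididymis libraries averaged 0.397 and 4.22 CPM.

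The 3 cases in testis were all replicate 4, the library with few small structural RNAs, and all were low: ADAMTS6 at 10.5 CPM, ADAMTS12 at 3.53 CPM and ADAMTS17 at 1.76 CPM.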

How the results depend on the processing

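Of the 24 called genes, 20 kept their call under all 15 other settings, which cover scaling, the filter, DESeq2, the replicate block and each library left out. The exceptions were ADAMTS8, ADAMTS12, ADAMTS15 and ADAMTS18. In the fit with the replicate block, paired by boar, 15 genes were higher in epididymis and 7 in testis, with 11 and 2 beyond 2-fold. The share of all genes beyond 2-fold was not computed for it. Of all 17225 genes tested in that fit, 6055 were higher in epididymis and 6307 in testis. ADAMTS8 and ADAMTS15 alone lost their calls. DESeq2 put 8 genes beyond 2-fold in the direction of epididymis, against 15 in the main fit, and gave ADAMTS8 no adjusted p. For DESeq2, too, the share of all genes beyond 2-fold was not computed. DESeq2-type size factors in edgeR shifted the median log2 fold change of all genes by 0.12. Without a filter all 45 genes were tested, and MMP12, MMP13 and MMP20 were called in addition.

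With replicate 4 as the sole testis library, 2 genes were higher in testis, 5 in epididymis and 1 in epididymis beyond 2-fold, and 2145 of all genes were higher in epididymis. The log2 fold changes of ADAMTS2 and ADAMTS4 were then -0.12 and -0.09. Without epididymis replicates 3 and 4, 11 of 40 tested family genes were higher in testis, beside 7217 of all 18222 genes tested. Beyond 2-fold 5 were higher in testis, a test for which the share over all genes was not computed. MMP9 changed direction to 1.96 in that fit, to 0.65 with the replicate block, and ranged from -2.85 to 1.85 over fits without 1 library. Over the same fits ADAMTSL1 ranged from -0.54 to 0.14 and ADAMTSL3 from -0.03 to 0.74, where neither was called. The cause of these changes was not tested. The 7 genes left out by the filter were too shallow for a level, and MMP7 rests on 3 testis reads.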
